A study of Homo sapiens with 54 samples.

Results

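Expression of the aryl hydrocarbon receptor gene AHR, its partner ARNT, its repressor AHRR and the target genes CYP1A1, CYP1B1 and TIPARP was followed through treatment of a breast cancer cell line with Compound Kushen Injection (CKI) and with mixtures of CKI components. The 6 genes were taken by name from a table of read counts for 27978 genes, and they had been chosen by their log2 ratios to untreated cells in these libraries. Those ratios are therefore given here as a description without a test. Tests of these genes were kept for comparisons between treated groups and between untreated groups. A difference between treated groups is the difference between their ratios, from the same libraries. The p-values of the 6 genes therefore do not allow for how the genes were chosen. Further genes of the pathway were tested against untreated cells.

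RNA came from MDA-MB-231, an established human line from a breast cancer that lacks estrogen receptor. CKI is an injection made from Sophora flavescens and Heterosmilax chinensis, and it was given at 2 mg/ml, as were the mixtures in amounts equivalent to 2 mg/ml CKI. The 54 libraries formed 18 groups of 3 biological replicates, each sampled after 24 or 48 h. Batch 1 held untreated cells, CKI, CKI without oxymatrine and oxysophocarpine (N-OmtOspc), CKI without these alkaloids and macrozamin (N-MacOmtOspc), oxymatrine with oxysophocarpine alone (OmtOspc), and these with macrozamin (MacOmtOspc), all of them at 24 h and at 48 h. Batch 2 held untreated cells, CKI and CKI without macrozamin (N-Mac), without N-methylcytisine (N-Nme), without oxymatrine (N-Omt) or without trifolirhizin (N-Tri), all at 48 h. The labels call the controls untreated and name no vehicle for them. No group held CKI taken apart and put back together whole. In contrasts with CKI, the lack of a component therefore cannot be told apart from the making of the mixture. Between mixtures that differ by macrozamin, macrozamin cannot be told apart from the making of the mixtures either. All results are from 1 cell line, and whether more cells held a transcript or each cell held more of it cannot be told apart in bulk RNA.

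The aryl hydrocarbon receptor is a transcription factor that waits in the cytoplasm with chaperones until it binds a ligand, among them dioxins, plant compounds and products of tryptophan. It then enters the nucleus, pairs with ARNT and binds DNA at a core of the letters GCGTG in front of its target genes. CYP1A1 is the textbook target, and AHRR and TIPARP are targets whose proteins in turn dampen the receptor.

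The sequence before the start was read for the members from the RefSeq promoter table (build GRCh38.p14, whereas the deposited counts were made on hg19). An entry was matched for 5 of the 6 members, and none for CYP1B1. The 250 bases before the start were searched on both strands for GCGTG and for the longer TNGCGTG, which contains it. The 3 members shown were chosen because their RNA was above untreated cells in nearly all treated groups. They are written 5′ to 3′ on the gene's strand, in lower case, with GCGTG or its reverse complement CACGC in capitals.
CYP1A1, chr15:74725529-74725778, minus strand: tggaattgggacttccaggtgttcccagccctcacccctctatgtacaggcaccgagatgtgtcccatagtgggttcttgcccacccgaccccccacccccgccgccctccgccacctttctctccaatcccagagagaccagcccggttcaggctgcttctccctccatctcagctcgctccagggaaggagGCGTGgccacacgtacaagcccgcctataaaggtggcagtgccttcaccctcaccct
AHRR, chr5:321464-321713, plus strand: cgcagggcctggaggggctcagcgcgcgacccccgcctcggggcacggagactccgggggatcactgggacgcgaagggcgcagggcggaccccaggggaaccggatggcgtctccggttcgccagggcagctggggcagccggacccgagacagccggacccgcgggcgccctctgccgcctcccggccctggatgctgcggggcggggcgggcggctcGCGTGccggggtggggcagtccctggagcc
TIPARP, chr3:156674340-156674589, plus strand: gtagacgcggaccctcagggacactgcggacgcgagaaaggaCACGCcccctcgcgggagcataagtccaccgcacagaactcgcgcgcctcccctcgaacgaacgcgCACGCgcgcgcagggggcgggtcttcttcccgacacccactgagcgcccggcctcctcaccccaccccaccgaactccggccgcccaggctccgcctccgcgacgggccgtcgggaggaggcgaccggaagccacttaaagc
CYP1A1 held 1 match, 57 bases before the start, and it was not a match to TNGCGTG. Sequence further than 250 bases before a start was not searched. AHRR held 1 match 30 bases before the start of the promoter shown, and it was also a match to TNGCGTG. TIPARP held 2 matches, 208 and 142 bases before the start shown, and neither was a match to TNGCGTG. AHR and ARNT held no match in this window. Of 35116 promoters in the table, 32.2% held GCGTG at least once in the same window, 10.2% held it 2 or more times and 4.52% held TNGCGTG, so a match is a description of the letters and is common. AHRR and TIPARP have further starts in the table that are not shown. The further start of AHRR held 2 matches, 247 and 42 bases before it, and neither was a match to TNGCGTG. The further starts of TIPARP held no match.

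Total counts per library were between 17673537 and 26138924, and levels are given as CPM, the read count of a gene over the library's total, scaled by the TMM method. The line's own markers VIM, CD44, EGFR and CAV1 were found in every library, at 66.8 CPM or above. ESR1 and PGR reached at most 0.333 and 0.0922 CPM, while GATA3, which was listed as low in this line, was found at 5.18 to 45.6 CPM and CDH1 at 0.0489 to 7.19 CPM. The summed level of 5 fibroblast genes was 28.7 to 63.4 CPM in untreated and 11.7 to 80.0 CPM in treated libraries, with DCN and POSTN at a median of 0, and that of 4 hepatocyte genes was 25.1 to 33.5 and 12.7 to 98.4 CPM, nearly all of it SERPINA1, with ALB and TTR at a median of 0. In 3 libraries of 24 h, namely CKI replicate 1, N-MacOmtOspc replicate 2 and OmtOspc replicate 2, the deviation from the rest of the group followed the difference between untreated cells of batch 2 and batch 1, with slopes of 0.665, 0.652 and 0.613 over 988 genes. The other 33 libraries of batch 1 had slopes between -0.418 and 0.135. They were also the 3 libraries of batch 1 whose column names in the count table carried no replicate number. The labels place them in batch 1, and whether they were prepared with it was not tested. Differences at 24 h are given with all libraries unless stated, and values without these 3 libraries stand beside them.

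Against untreated cells of the same time and batch, CYP1A1 and TIPARP were higher in every library of all 15 treated groups. AHRR was higher in every library of 14 groups, CYP1B1 of 13, ARNT of 11 and AHR of 8. AHR was lower in every library in 2 groups, CKI at 48 h in both batches. How many of all genes lay apart from untreated cells in this way was not counted, so whether these counts stand out cannot be told. The shares given below are of genes that differed in a test, which is another measure. The median log2 ratio over the 15 groups was 4.02 for CYP1A1, 1.70 for TIPARP, 1.01 for AHRR, 0.94 for CYP1B1, 0.22 for ARNT and 0.22 for AHR. Groups of one time and batch share the same 3 untreated libraries, so these 15 ratios are not independent. Treatment moved much of the transcriptome: 29.9% of all genes tested differed between CKI and untreated cells at 24 h, 53.9% at 48 h in batch 1 and 66.4% at 48 h in batch 2. At 24 h the share was 62.0% with N-OmtOspc, 45.0% with N-MacOmtOspc, 16.7% with OmtOspc and 10.4% with MacOmtOspc. At 48 h it was 76.5%, 71.0%, 57.7% and 51.1% in the same order, and in batch 2 it was 72.3% with N-Mac, 71.3% with N-Nme, 78.2% with N-Omt and 72.2% with N-Tri. Without the 3 libraries that stand apart the shares at 24 h were 32.6% with CKI and, in the same order of mixtures, 68.4%, 54.1%, 22.2% and 20.1%. The share for MacOmtOspc at 24 h was 35.5% with only these groups in the fit.

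**Figure D1:**
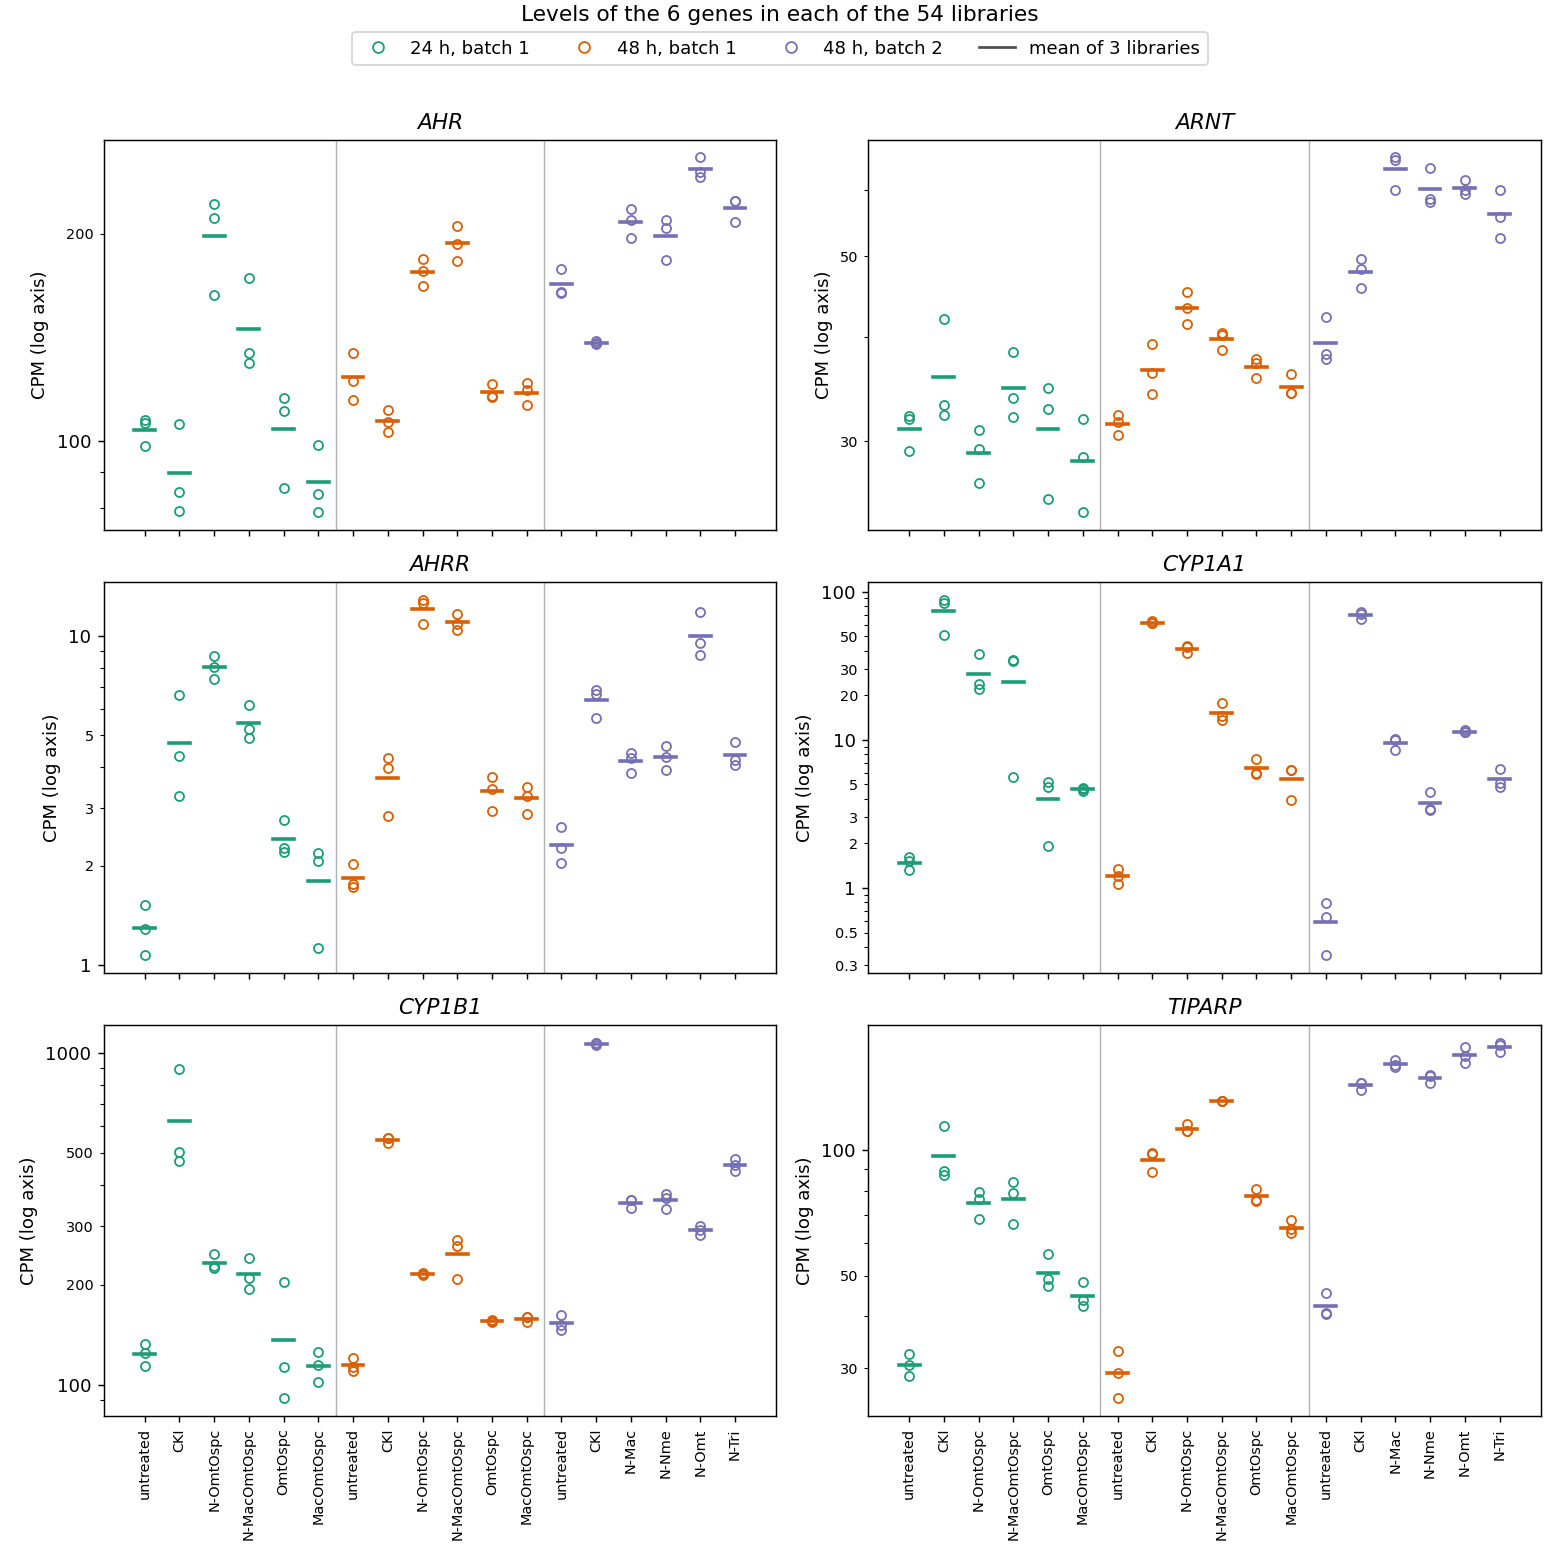
Level of each of the 6 genes in CPM (log axis) in the 54 libraries, with circles for libraries, bars for the mean of 3 libraries, and colours for the time and batch. CYP1A1 lay between 51.3 and 87.8 CPM in all 9 CKI libraries and between 0.353 and 1.61 CPM in the 9 untreated libraries. The highest AHR means were those of the single removals of batch 2, where untreated cells also held more AHR than in batch 1. AHR with OmtOspc and MacOmtOspc overlapped untreated cells at both times.

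The 6 genes were compared in 16 contrasts between treated groups with edgeR's quasi-likelihood test. A gene was called differentially expressed (DE) at a Benjamini-Hochberg adjusted p-value under 0.05 over all genes tested in that contrast. Of 96 member results 61 were DE. The genes were chosen by ratios from these same libraries, so these calls and p-values are no independent support. In batch 2, all 6 members were DE against CKI with N-Mac, N-Omt and N-Tri and 5 with N-Nme. The share of all genes DE in these contrasts was also high, at 69.3%, 76.3%, 71.5% and 71.4%. With N-OmtOspc against CKI, 5 members were DE at 24 h (58.7% of all genes) and 6 at 48 h (73.1%), and with N-MacOmtOspc 4 were DE at 24 h (35.6%) and 5 at 48 h (67.2%). With OmtOspc against CKI, 4 members were DE at 24 h (8.44% of all genes) and 3 at 48 h (51.7%), and with MacOmtOspc 4 at 24 h (11.5%) and 3 at 48 h (47.5%). Between N-MacOmtOspc and N-OmtOspc, which differ by macrozamin, 1 member was DE at 24 h (47.6% of all genes) and 3 at 48 h (51.0%). Between MacOmtOspc and OmtOspc, which differ by macrozamin as well, no member was DE at either time, although TIPARP at 48 h was DE under other settings that are given with its values. In that contrast edgeR called 0.0% of all genes at 24 h and 1.97% at 48 h, and 9.86% at 48 h with only these groups in the fit. At 24 h edgeR gave 563 genes with an unadjusted p under 0.05, and DESeq2 called 0 genes, with 625 at an unadjusted p under 0.05. Without the 3 libraries that stand apart, the shares at 24 h against CKI were 61.6% with N-OmtOspc, 43.7% with N-MacOmtOspc, 11.1% with OmtOspc and 14.7% with MacOmtOspc, and with only the compared groups in the fit the shares for N-MacOmtOspc and OmtOspc were 22.5% and 2.22%. Between N-MacOmtOspc and N-OmtOspc at 24 h the share was 51.7% without them, and AHRR was then a second DE member. The 4 mixtures of one time point in batch 1 were set against the same 3 CKI libraries, and so were the 4 mixtures of batch 2.

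**Figure D2:**
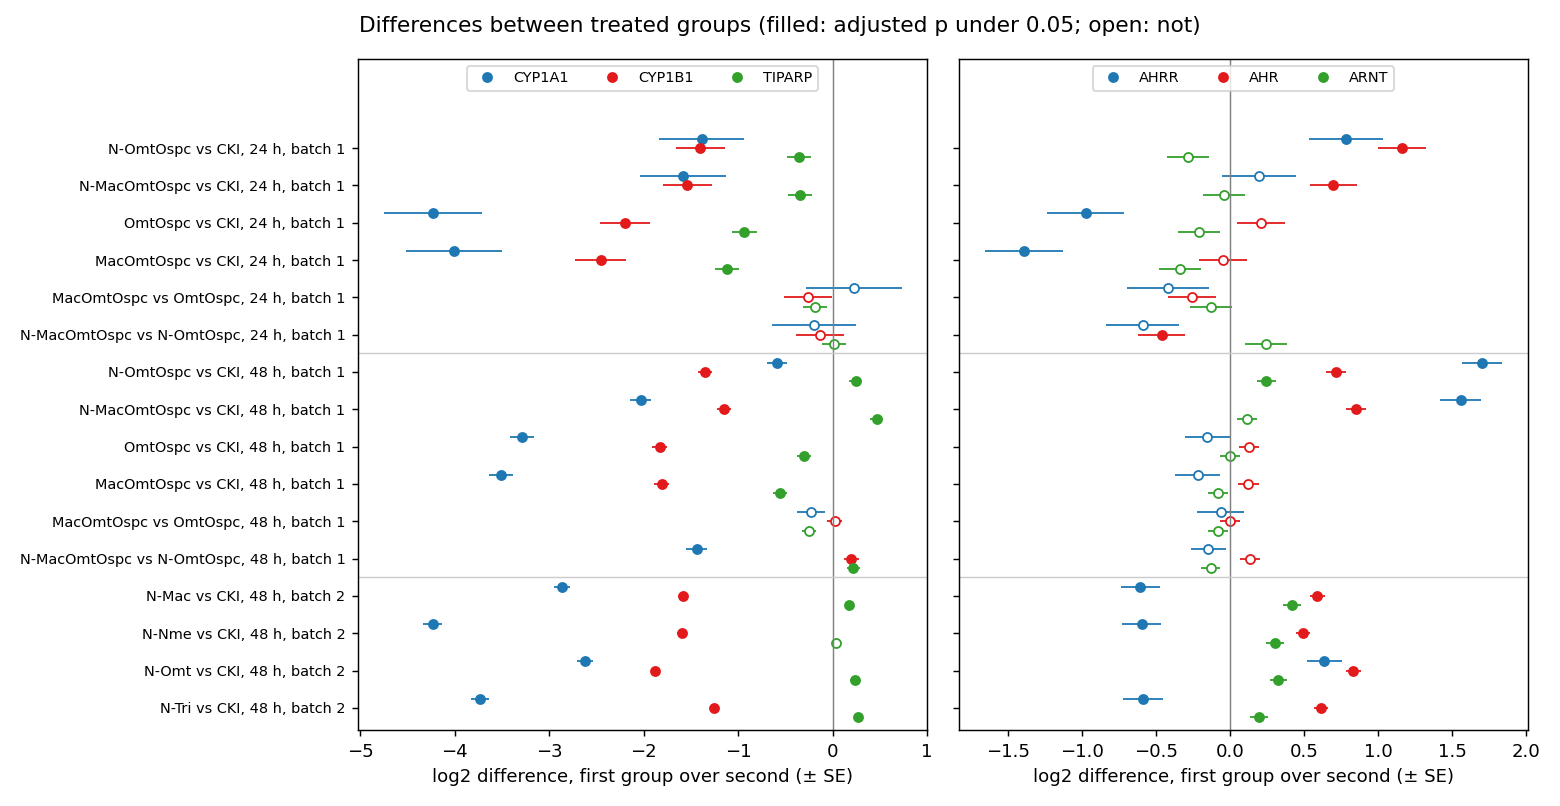
Log2 difference ± SE between treated groups for CYP1A1, CYP1B1 and TIPARP (left) and AHRR, AHR and ARNT (right), with filled circles for an adjusted p under 0.05 and open circles otherwise. CYP1A1 was on the lower side of CKI in all 12 contrasts with CKI, from -0.59 to -4.23, while AHRR lay on either side.

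AHR encodes the receptor. Untreated cells held 98.3, 107 and 106 CPM at 24 h, 134, 122 and 115 CPM at 48 h in batch 1 and 165, 164 and 178 CPM at 48 h in batch 2. These groups did not overlap. The rise from 24 to 48 h was 0.25 on the log2 scale (adjusted p = 0.0186 from edgeR, with 24.8% of all genes DE and AHR the only member), a call that was lost without either untreated replicate 1 or replicate 2 of either time, with the lowest value 0.19 (adjusted p = 0.0595 from edgeR) without replicate 1 at 48 h. The difference of batch 2 from batch 1 was 0.41 (adjusted p = 9.81e-05 from edgeR, with 5 members and 58.8% of all genes DE).

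With CKI, AHR was at 106, 84.4 and 79.0 CPM at 24 h, 103, 106 and 111 CPM at 48 h in batch 1 and 140, 139 and 138 CPM in batch 2, or log2 ratios to untreated cells of -0.21, -0.21 and -0.28. The 24 h libraries overlapped untreated cells, where CKI replicate 1 was the highest. Without the 3 libraries named above the ratio at 24 h was -0.35. With N-OmtOspc, AHR was at 211, 221 and 163 CPM at 24 h and at 184, 176 and 168 CPM at 48 h.

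All of these N-OmtOspc libraries lay above every untreated and every CKI library of the same time in batch 1. AHR was higher with N-OmtOspc than with CKI by 1.16 ± 0.16 (SE) on the log2 scale at 24 h (adjusted p = 1.29e-05 from edgeR, 1.30 without the 3 libraries) and by 0.72 ± 0.068 at 48 h (adjusted p = 2.14e-09 from edgeR). With N-MacOmtOspc it was higher than with CKI by 0.70 ± 0.16 at 24 h (0.70 without the 3 libraries) and by 0.85 ± 0.068 at 48 h. With the single removals AHR was higher than with CKI by 0.59 (N-Mac), 0.49 (N-Nme), 0.83 (N-Omt) and 0.61 (N-Tri). The highest adjusted p was 4.35e-11 from edgeR, for N-Nme.

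AHR differed from CKI by 0.21 with OmtOspc and -0.05 with MacOmtOspc at 24 h (0.30 and 0.09 without the 3 libraries). The differences at 48 h were 0.13 and 0.12, and none of these was DE. At 48 h both mixtures lay above CKI in every library, and both were DE with only the compared groups in the fit (0.14 with adjusted p = 0.0105 and 0.13 with adjusted p = 0.0433 from edgeR). AHR was lower with N-MacOmtOspc than with N-OmtOspc by -0.46 at 24 h (adjusted p = 0.0241 from edgeR), in libraries that overlapped. That call was lost without any 1 of N-OmtOspc replicates 1 and 2 and N-MacOmtOspc replicates 1 and 3, down to -0.38 (adjusted p = 0.0968 from edgeR) without N-OmtOspc replicate 2, with library sizes as the only scaling (-0.14, adjusted p = 0.537 from edgeR) and with only these groups in the fit (-0.43, adjusted p = 0.0913 from edgeR), whereas without the 3 libraries named above the value was -0.60 (adjusted p = 0.00414 from edgeR). At 48 h the difference was 0.13 and not DE, but 0.18 and DE (adjusted p = 0.0355 from edgeR) without N-MacOmtOspc replicate 3. In the order of AHR means, N-Omt stood first at 249 ± 8.54 CPM (SD, n = 3), above all replicates of N-Tri at 218 ± 8.74 CPM (SD, n = 3), and most further neighbours in the order overlapped.

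ARNT encodes the protein with which the receptor pairs on DNA, and it also pairs with the hypoxia factors. It varied least among the 6 genes. Its group means in batch 1 were between 28.4 ± 3.65 CPM (SD, n = 3) with MacOmtOspc at 24 h and 43.4 ± 1.92 CPM (SD, n = 3) with N-OmtOspc at 48 h. In batch 2 the libraries held 38.2, 42.2 and 37.6 CPM untreated, 48.3, 49.6 and 45.8 CPM with CKI, and 52.5 to 65.7 CPM with the single removals.

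The CKI libraries of batch 2 lay above all untreated ones, and the single removals lay above all CKI ones. ARNT was higher than with CKI by 0.42 with N-Mac, 0.30 with N-Nme, 0.33 with N-Omt and 0.19 with N-Tri, with adjusted p of 1.03e-07, 2.44e-05, 7.70e-06 and 0.00440 from edgeR. The N-Tri call was lost without N-Tri replicate 2 (0.15, adjusted p = 0.0522 from edgeR). In batch 1 ARNT was DE in a single contrast of 12, N-OmtOspc against CKI at 48 h, where it was higher by 0.24 (adjusted p = 0.00196 from edgeR). At 24 h ARNT differed from CKI by -0.28 with N-OmtOspc (adjusted p = 0.0978 from edgeR) and by -0.34 with MacOmtOspc (adjusted p = 0.137 from edgeR). N-MacOmtOspc differed from N-OmtOspc by 0.24 (adjusted p = 0.174 from edgeR). Without the 3 libraries that stand apart these values were -0.15, -0.20 and 0.17, none of them DE. With all 54 libraries in 1 fit all of them were DE at -0.30 (adjusted p = 0.00503 from edgeR), -0.33 (adjusted p = 0.00614 from edgeR) and 0.26 (adjusted p = 0.0177 from edgeR). With library sizes as the only scaling ARNT was DE with N-OmtOspc against CKI at 24 h (-0.65) and with N-MacOmtOspc against N-OmtOspc at 24 h (0.56) and 48 h (-0.25). That scaling moved the median of all genes by -0.36 and 0.32 in the 2 contrasts of 24 h. N-MacOmtOspc against CKI at 48 h gave 0.11, which became DE (0.19, adjusted p = 0.0263 from edgeR) without CKI replicate 3. Untreated cells of batch 2 held more ARNT than those of batch 1, by 0.28 (adjusted p = 0.00340 from edgeR).

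AHRR encodes a repressor that competes with the receptor for ARNT. Its counts were low, with 23 to 33 reads per untreated library at 24 h. Untreated libraries held 1.29, 1.07 and 1.52 CPM at 24 h, 2.03, 1.72 and 1.76 CPM at 48 h in batch 1 and 2.27, 2.04 and 2.62 CPM in batch 2. With CKI it was at 6.61, 3.27 and 4.33 CPM at 24 h, 2.83, 4.26 and 3.98 CPM at 48 h in batch 1 and 6.65, 5.64 and 6.87 CPM in batch 2. All CKI libraries lay above all untreated libraries of their time and batch, with log2 ratios of 1.87 (1.54 without the 3 libraries named above), 1.01 and 1.47.

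The highest AHRR levels at 48 h were in mixtures without oxymatrine. N-OmtOspc gave 8.05, 7.42 and 8.70 CPM at 24 h and 10.9, 12.6 and 12.9 CPM at 48 h. N-MacOmtOspc gave 6.16, 5.20 and 4.91 CPM at 24 h and 10.4, 11.6 and 10.9 CPM at 48 h, and N-Omt gave 8.76, 9.50 and 11.8 CPM. At 48 h these libraries lay above every CKI library of their batch, whereas at 24 h N-OmtOspc lay above CKI and N-MacOmtOspc overlapped it. The differences from CKI at 48 h were 1.70 ± 0.13 (SE) for N-OmtOspc (adjusted p = 8.12e-11 from edgeR), 1.56 ± 0.14 for N-MacOmtOspc (adjusted p = 6.58e-10 from edgeR) and 0.64 ± 0.12 for N-Omt (adjusted p = 9.15e-06 from edgeR).

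The other single removals went the other way. N-Mac gave 4.25, 4.42 and 3.83 CPM, N-Nme 3.91, 4.30 and 4.64 CPM, and N-Tri 4.04, 4.20 and 4.77 CPM, and each of these libraries lay below every CKI library of batch 2. The differences were -0.61, -0.60 and -0.59, with the highest adjusted p at 0.000178 from edgeR. N-OmtOspc, N-MacOmtOspc and N-Omt share the absence of oxymatrine, but the first pair also lacks oxysophocarpine, and oxysophocarpine was not removed alone.

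At 24 h the differences from CKI were less certain. AHRR was higher with N-OmtOspc by 0.78 (adjusted p = 0.0123 from edgeR, 1.11 without the 3 libraries), a call lost without CKI replicate 2 (0.56, adjusted p = 0.0722 from edgeR). It differed by 0.20 with N-MacOmtOspc and was not DE (0.56 with adjusted p = 0.0801 from edgeR without the 3 libraries). N-MacOmtOspc lay below N-OmtOspc in every library, by -0.59 (adjusted p = 0.0583 from edgeR), and was DE without the 3 libraries (-0.56, adjusted p = 0.0426 from edgeR), with DESeq2 (-0.61, adjusted p = 0.0371) and with all 54 libraries (-0.58, adjusted p = 0.00399) or only these groups (-0.56, adjusted p = 0.0499) in the edgeR fit. OmtOspc gave 2.20, 2.77 and 2.27 CPM and MacOmtOspc 1.12, 2.08 and 2.19 CPM, all below the CKI libraries. The difference was -1.39 for MacOmtOspc (adjusted p = 0.00351 from edgeR, -1.06 without the 3 libraries) and -0.97 for OmtOspc (adjusted p = 0.0276 from edgeR). The OmtOspc call was lost without the 3 libraries (-0.76, adjusted p = 0.0863 from edgeR) and with only these groups in the fit (-0.98, adjusted p = 0.136 from edgeR) and without any 1 of CKI replicates 1 and 3 and OmtOspc replicates 1 and 3, for example -0.64 (adjusted p = 0.126 from edgeR) without CKI replicate 1. At 48 h neither mixture was DE against CKI, with differences of -0.16 and -0.22. Reads of AHRR may also belong to the read-through gene PDCD6-AHRR, which overlaps it.

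CYP1A1 encodes a cytochrome P450 that oxidizes polycyclic aromatic compounds. Untreated cells held little of it, 1.52, 1.33 and 1.61 CPM at 24 h, 1.34, 1.21 and 1.06 CPM at 48 h in batch 1 and 0.353, 0.637 and 0.790 CPM in batch 2. The base level was lower in batch 2 by -1.07 ± 0.30 (SE) on the log2 scale (adjusted p = 0.00744 from edgeR). With CKI it was at 51.3, 87.8 and 84.4 CPM at 24 h, 63.3, 61.0 and 61.4 CPM at 48 h in batch 1 and 70.5, 65.4 and 73.0 CPM in batch 2.

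The CKI libraries of 24 h overlapped those of 48 h in both batches, the CKI libraries of batch 2 lay above those of batch 1 at 48 h, and the untreated libraries of batch 2 lay below all those of batch 1. The log2 ratios to untreated cells were 5.65 ± 0.58 (SE) at 24 h, 5.68 ± 0.16 at 48 h in batch 1 and 6.88 ± 0.14 in batch 2, so that the ratio in batch 2 was set against a lower base. Without CKI replicate 1, N-MacOmtOspc replicate 2 and OmtOspc replicate 2 the ratio at 24 h was 5.85 ± 0.21. These libraries held the lowest CYP1A1 of their groups, 51.3 against 84.4 and 87.8 CPM for CKI, 5.61 against 34.0 and 34.6 CPM for N-MacOmtOspc and 1.93 against 4.82 and 5.17 CPM for OmtOspc.

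CYP1A1 was far lower with each single removal than with whole CKI. N-Mac gave 8.54, 10.1 and 9.95 CPM, N-Nme 3.36, 3.42 and 4.44 CPM, N-Omt 11.6, 11.3 and 11.2 CPM and N-Tri 6.36, 4.79 and 5.14 CPM. None of these libraries overlapped with CKI or with untreated cells. The differences from CKI were -2.86 ± 0.087 (SE) for N-Mac (adjusted p = 2.51e-25 from edgeR), -4.23 ± 0.10 for N-Nme (adjusted p = 3.00e-28 from edgeR), -2.62 ± 0.085 for N-Omt (adjusted p = 8.65e-25 from edgeR) and -3.73 ± 0.095 for N-Tri (adjusted p = 3.16e-27 from edgeR). As folds these were 7.27, 18.8, 6.15 and 13.3 times lower, and the log2 ratios to untreated cells were still 4.02, 2.65, 4.26 and 3.14.

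Removal of oxymatrine with oxysophocarpine was assayed in batch 1. N-OmtOspc gave 23.8, 22.0 and 38.2 CPM at 24 h and 42.7, 38.4 and 42.3 CPM at 48 h, all below CKI and above untreated cells. The difference from CKI was -0.59 ± 0.11 (SE) at 48 h (adjusted p = 2.88e-05 from edgeR). It was -1.39 ± 0.45 at 24 h (adjusted p = 0.0144 from edgeR), a call that was lost without N-OmtOspc replicate 1 (-1.28, adjusted p = 0.0550 from edgeR) or replicate 2 (-1.24, adjusted p = 0.0574 from edgeR) and that stood at -1.60 ± 0.17 (adjusted p = 1.40e-06 from edgeR) without the 3 libraries that stand apart. The value for N-Omt of batch 2 lies further below CKI than that for N-OmtOspc at 48 h, which lacks 1 component more, but the mixtures are in different batches and were not compared by a test.

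With macrozamin removed as well, N-MacOmtOspc gave 34.0, 5.61 and 34.6 CPM at 24 h and 13.5, 17.8 and 14.5 CPM at 48 h. At 48 h all its libraries lay below those of N-OmtOspc, by -1.44 ± 0.12 (SE) on the log2 scale (adjusted p = 1.15e-09 from edgeR), or 2.71 times lower. At 24 h the groups overlapped and the difference was -0.20 ± 0.45 (adjusted p = 0.742 from edgeR), or 0.28 ± 0.17 (adjusted p = 0.187 from edgeR) without N-MacOmtOspc replicate 2 and the other 2 libraries. Against CKI, N-MacOmtOspc was lower by -1.58 (adjusted p = 0.0121 from edgeR) at 24 h, -1.32 without the 3 libraries, and by -2.03 (adjusted p = 3.41e-13 from edgeR) at 48 h.

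The mixtures of purified components gave small amounts of CYP1A1. OmtOspc gave 4.82, 1.93 and 5.17 CPM at 24 h and 7.43, 5.93 and 5.87 CPM at 48 h, and MacOmtOspc gave 4.55, 4.65 and 4.71 CPM at 24 h and 3.90, 6.22 and 6.29 CPM at 48 h. Every one of these libraries was above the untreated and below the CKI libraries of its time. The differences from CKI were -4.23 and -4.01 at 24 h (-4.10 and -4.21 without the 3 libraries) and -3.29 and -3.51 at 48 h, with the highest adjusted p at 0.000139 from edgeR. MacOmtOspc differed from OmtOspc in CYP1A1 by 0.22 ± 0.51 (SE) at 24 h and by -0.23 ± 0.15 at 48 h, neither of them DE (adjusted p = 0.886 and 0.608 from edgeR). Without OmtOspc replicate 2 and the other libraries that stand apart the first value was -0.11 ± 0.21 (adjusted p = 0.961 from edgeR).

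CYP1B1 encodes a related P450 that hydroxylates estradiol. It was abundant before treatment, at 114 to 133 CPM in untreated cells at 24 h, 110 to 120 CPM at 48 h in batch 1 and 146 to 162 CPM in batch 2, the last being higher than batch 1 by 0.38 (adjusted p = 9.57e-05 from edgeR). With CKI it was at 896, 502 and 472 CPM at 24 h, 554, 536 and 553 CPM at 48 h in batch 1 and 1070, 1071 and 1055 CPM in batch 2. All CKI libraries lay above all other libraries of their time and batch. The log2 ratios to untreated cells were 2.34, 2.26 and 2.80, and the first was 1.97 without CKI replicate 1, which held the highest level of its group.

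Every mixture held less CYP1B1 than CKI. The single removals gave 341 to 360 CPM (N-Mac), 337 to 376 CPM (N-Nme), 282 to 301 CPM (N-Omt) and 441 to 477 CPM (N-Tri), lower than CKI by -1.58, -1.59, -1.88 and -1.25 on the log2 scale with adjusted p of 2.43e-22 or less from edgeR. Their order was not that of CYP1A1, which was highest with N-Omt and lowest with N-Nme. N-OmtOspc gave 227, 248 and 224 CPM at 24 h and 215, 217 and 214 CPM at 48 h, and N-MacOmtOspc 194, 242 and 209 CPM and 262, 274 and 208 CPM. These were lower than CKI by -1.40 and -1.54 at 24 h (-1.04 and -1.26 without the 3 libraries) and by -1.35 and -1.15 at 48 h, all DE.

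N-MacOmtOspc was higher than N-OmtOspc by 0.20 at 48 h (adjusted p = 0.0347 from edgeR), in overlapping libraries. That call was lost with all 54 libraries in 1 fit (0.20, adjusted p = 0.321 from edgeR), with library sizes as the only scaling (0.08, adjusted p = 0.375 from edgeR), with only these groups in the fit (0.21, adjusted p = 0.170 from edgeR) and without any 1 of the libraries except N-MacOmtOspc replicate 3, down to 0.13 (adjusted p = 0.120 from edgeR) without N-MacOmtOspc replicate 2. The mixtures of purified components gave 91.3, 204 and 113 CPM (OmtOspc) and 102, 115 and 125 CPM (MacOmtOspc) at 24 h, where both overlapped untreated cells. MacOmtOspc differed from OmtOspc by -0.26 at 24 h and by 0.17 without the 3 libraries, neither of them DE. At 48 h they gave 154 to 157 and 154 to 160 CPM, all above untreated cells. The log2 ratio of OmtOspc to untreated cells at 24 h was 0.14, and -0.28 without OmtOspc replicate 2. The gene CYP1B1-AS1 is by its name antisense to CYP1B1, and although the libraries were strand-specific, how strand was used in counting is not given in the sources used here, so that the reads of these genes, like those of TIPARP and TIPARP-AS1, may be in part shared.

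**Figure D3:**
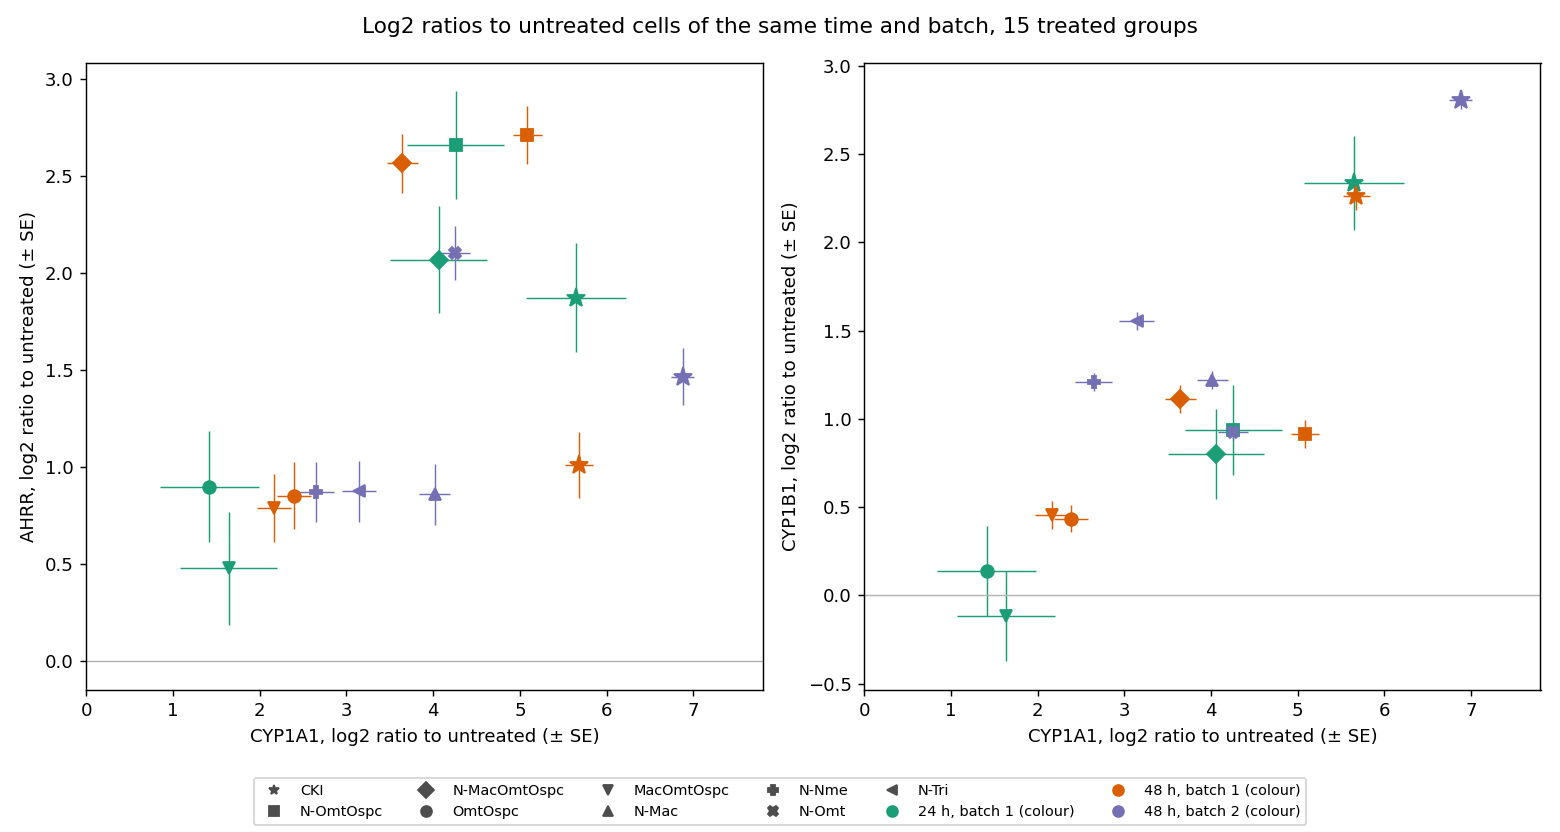
Log2 ratio to untreated cells of the same time and batch (± SE) of AHRR (left) and CYP1B1 (right) against that of CYP1A1 in the 15 treated groups, with a symbol for each treatment and a colour for time and batch. CKI lies highest for CYP1A1 and CYP1B1. For AHRR its ratios lie between those of the mixtures without oxymatrine, at 2.07 to 2.71, and the other mixtures, at 0.48 to 0.90. These ranges pool times and batches. For AHRR, N-MacOmtOspc at 24 h and OmtOspc and MacOmtOspc at 48 h were not DE against CKI. Groups of one colour share their untreated libraries.

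TIPARP encodes a mono-ADP-ribosyltransferase that modifies the receptor. It was at 28.8, 32.4 and 30.5 CPM in untreated cells at 24 h, 32.9, 29.2 and 25.4 CPM at 48 h in batch 1 and 40.5, 40.8 and 45.5 CPM in batch 2. With CKI it was at 114, 89.0 and 87.2 CPM at 24 h, 88.4, 97.8 and 98.3 CPM at 48 h in batch 1 and 140, 145 and 145 CPM in batch 2. No CKI library overlapped with untreated cells, and the log2 ratios were 1.67 (1.52 without CKI replicate 1 and the other 2 libraries), 1.70 and 1.77. Untreated cells of batch 2 held more than those of batch 1, by 0.49 (adjusted p = 0.000263 from edgeR).

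Unlike CYP1A1 and CYP1B1, TIPARP did not fall below CKI when components were removed at 48 h. It was higher than with CKI by 0.25 with N-OmtOspc (111 to 116 CPM), 0.47 with N-MacOmtOspc (131 to 132 CPM), 0.18 with N-Mac, 0.23 with N-Omt and 0.27 with N-Tri, all DE with adjusted p of 0.00380 or less from edgeR, and by 0.04 with N-Nme (adjusted p = 0.471 from edgeR). The N-Mac call was lost with all 54 libraries in 1 fit (0.17, adjusted p = 0.0915 from edgeR). N-MacOmtOspc was above N-OmtOspc by 0.22 (adjusted p = 0.0128 from edgeR), but by 0.10 and not DE (adjusted p = 0.279 from edgeR) with library sizes as the only scaling. At 24 h the direction was the opposite, -0.36 with N-OmtOspc (adjusted p = 0.0241 from edgeR) and -0.34 with N-MacOmtOspc (adjusted p = 0.0471 from edgeR), but neither was DE without the 3 libraries that stand apart (-0.22 with adjusted p = 0.0883 and -0.11 with adjusted p = 0.481 from edgeR). Both calls were lost with only the compared groups in the fit (-0.38 with adjusted p = 0.0643 and -0.33 with adjusted p = 0.172 from edgeR), and the second with no filter on low counts (-0.35, adjusted p = 0.0725 from edgeR). They were also lost without N-OmtOspc replicate 3 (-0.29, adjusted p = 0.0898 from edgeR), without N-MacOmtOspc replicate 1 (-0.37, adjusted p = 0.0783 from edgeR) or replicate 2 (-0.25, adjusted p = 0.138 from edgeR), and without CKI replicate 1 (-0.22 and -0.20).

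The mixtures of purified components gave less TIPARP than CKI at both times. OmtOspc gave 47.3, 49.0 and 56.2 CPM at 24 h and 75.7, 76.1 and 80.8 CPM at 48 h, and MacOmtOspc gave 42.2, 43.7 and 48.2 CPM and 68.0, 63.2 and 64.6 CPM. All lay between the untreated and the CKI libraries. The differences from CKI were -0.93 and -1.12 at 24 h (-0.77 and -0.98 without the 3 libraries) and -0.30 and -0.55 at 48 h, with the highest adjusted p at 0.00110 from edgeR. MacOmtOspc lay below OmtOspc in every library at 48 h, by -0.25 (adjusted p = 0.0801 from edgeR, not DE). The difference was DE by edgeR with only these groups in the fit (-0.26, adjusted p = 0.00131) and with p-values adjusted over the 16 contrasts together (adjusted p = 0.00633), and by DESeq2 (adjusted p = 0.0186).

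Whether the contrasts of batch 1 changed between 24 and 48 h was tested for the 6 members in 1 fit over both times. Relative to CKI, 3 members changed with N-OmtOspc (31.4% of all genes), 2 with N-MacOmtOspc (16.8%), 1 with OmtOspc (13.5%) and 2 with MacOmtOspc (11.5%), and TIPARP was among them in all 4, moving up by 0.62, 0.81, 0.64 and 0.57. Between N-MacOmtOspc and N-OmtOspc 3 changed (37.9% of all genes), of which CYP1A1 moved down by -1.25 (adjusted p = 0.0448 from edgeR).

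Further genes of the pathway were taken from 3 lists, 12 of the receptor complex and its partners, 20 other reported targets and 9 enzymes that make or use tryptophan-derived ligands. Of these 41 genes 30 had enough counts for a test in batch 1 and 32 in batch 2. With CKI against untreated cells, 7 were higher and 5 lower at 24 h (40.0% DE, against 29.9% of all genes, and 16 DE without the 3 libraries), 13 higher and 8 lower at 48 h in batch 1 (70.0% against 53.9%) and 12 higher and 12 lower in batch 2 (75.0% against 66.4%). Of the complex and partners, 1 was higher and 2 lower at 24 h, 3 and 5 at 48 h in batch 1 and 3 and 6 in batch 2, of 12 tested. Of the other targets, 4 were higher and 2 lower at 24 h and 7 and 2 at 48 h in batch 1, of 13 tested, and 7 and 4 in batch 2, of 14 tested. Of the enzymes, 2 were higher and 1 lower at 24 h and 3 and 1 at 48 h in batch 1, of 5 tested, and 2 and 2 in batch 2, of 6 tested. The median log2 ratio of the 3 lists together was -0.05, 0.20 and 0.04, beside 0.02, 0.01 and -0.01 for all genes. Over the mixtures, the share DE was between 13.3% with MacOmtOspc at 24 h (10.4% of all genes) and 87.5% with N-Omt (78.2% of all genes). The lists were chosen with earlier results of these data known. The genes named below were those with the largest ratios among genes called with CKI at 48 h in batch 1, up to 4 per list. Their calls in that contrast were therefore fixed by the picking.

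**Figure D4:**
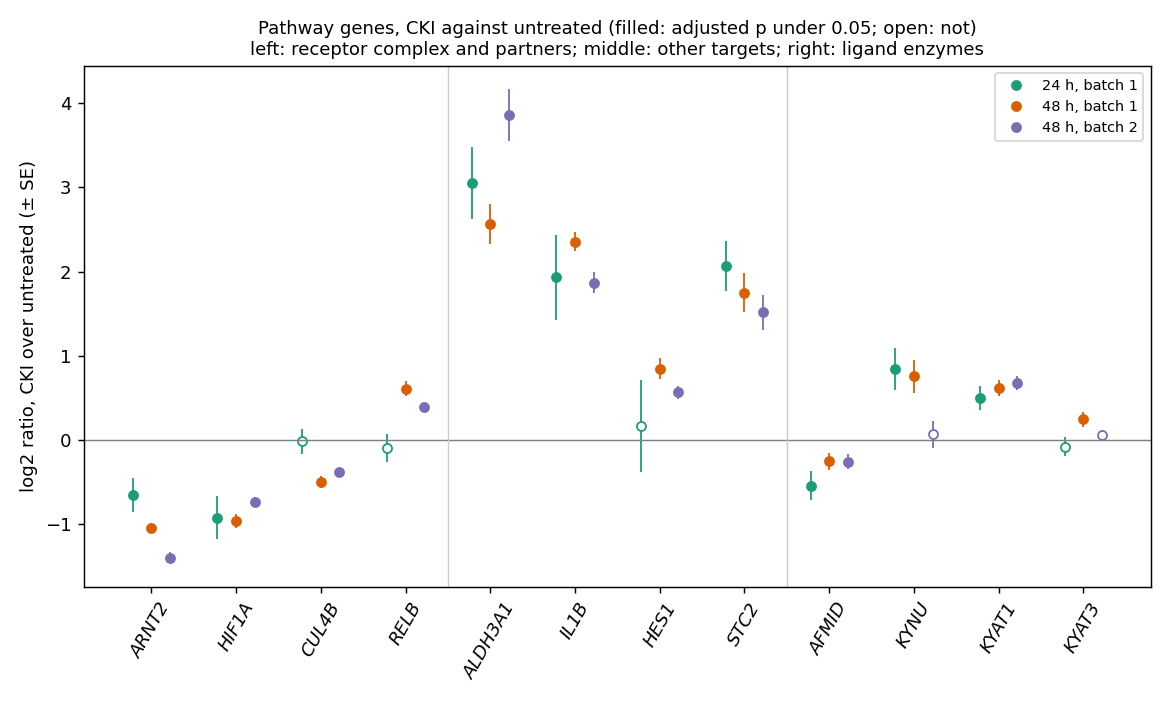
Log2 ratio of CKI to untreated cells (± SE) for 12 genes of the receptor pathway, 4 from each list, at 24 h and in both batches at 48 h, with filled circles for an adjusted p under 0.05. The genes were picked from those called at 48 h in batch 1. ALDH3A1 had ratios of 2.56 to 3.86 and ARNT2 of -0.65 to -1.40.

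Among the other targets, ALDH3A1, an aldehyde dehydrogenase long known as a target of the receptor, rose with CKI from 0.746 to 6.25 CPM at 24 h, from 0.618 to 3.64 CPM at 48 h in batch 1 and from 0.208 to 3.05 CPM in batch 2. The log2 ratios were 3.05, 2.56 and 3.86, with adjusted p of 7.28e-05, 4.73e-09 and 1.68e-13 from edgeR, and 3.38 at 24 h without the 3 libraries. The base was low, with 8 to 24 reads per untreated ALDH3A1 library in batch 1 and 2 to 7 in batch 2. Of the 12 other treated groups it was DE against untreated cells in N-OmtOspc at 48 h, with a ratio of 1.60, and in N-Omt, with 1.39. IL1B, the cytokine interleukin-1 beta, rose with CKI by 1.93 (2.07 without the 3 libraries), 2.36 and 1.87, and its ratio reached 6.29 with N-Omt. STC2, a secreted glycoprotein, rose by 2.06 (2.01 without the 3 libraries), 1.75 and 1.52, from 7 to 34 reads per untreated library for STC2. HES1, a transcriptional repressor of the Notch pathway, rose by 0.85 and 0.57 at 48 h. At 24 h its ratio was 0.17 with no call, and it was lower by -0.63 (adjusted p = 0.0240 from edgeR) without the 3 libraries. The highest adjusted p among the calls with all libraries was 0.00820 from edgeR, for IL1B at 24 h. These 4 targets rose at 48 h, but of the whole list 7 were higher and 2 lower in batch 1 and 7 and 4 in batch 2. NQO1 rose by 0.53 and 1.27 at 48 h, whereas SLC7A5 fell by -0.69 and -0.41. IL6 was at 0.16 with no call in batch 1 at 48 h and fell by -2.18 in batch 2.

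Among the partners, ARNT2, a relative of ARNT, fell with CKI by -0.65, -1.05 and -1.40 on the log2 scale, and HIF1A, the hypoxia factor that also pairs with ARNT, fell by -0.92, -0.96 and -0.73. CUL4B, the scaffold of a ubiquitin ligase to which the receptor can belong, fell by -0.50 and -0.38 at 48 h, and RELB, an NF-κB subunit that can bind the receptor, rose by 0.61 and 0.39, with -0.01 and -0.09 and no call at 24 h. Among the enzymes of the kynurenine route, KYAT1, an aminotransferase, rose by 0.50, 0.62 and 0.68 and AFMID, the formamidase, fell by -0.54, -0.25 and -0.25. KYNU, the kynureninase, rose by 0.84 at 24 h and 0.75 at 48 h in batch 1 but not in batch 2 (0.07), and KYAT3, another aminotransferase, rose in batch 1 at 48 h alone, by 0.25. The highest adjusted p among these calls was 0.0416 from edgeR, for AFMID at 48 h in batch 1. Without the 3 libraries the ratios at 24 h were -0.39 for ARNT2, -1.04 for HIF1A, 0.54 for KYAT1, -0.53 for AFMID and 0.95 for KYNU, all DE, and -0.10 for CUL4B, 0.05 for RELB and 0.02 for KYAT3, none of them DE.

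The genes whose means over the 18 groups were most like those of each member were sought among 13332 genes by Pearson's correlation of log2 CPM. These correlations share libraries, times and batches and are given as a description. CYP1A1 was most like AKR1B10 (0.962), an aldo-keto reductase, followed by ANGPTL4 (0.927), a secreted inhibitor of lipoprotein lipase, TRNP1 (0.926), GEMIN8P4 (0.917) and SNPH (0.913). Among the members, its correlation was 0.713 with CYP1B1, 0.682 with AHRR, 0.585 with TIPARP, 0.115 with ARNT and 0.00909 with AHR. AHRR was most like BCL6 (0.943), a transcriptional repressor, CATSPERG (0.936) and GABARAPL1 (0.936), an autophagy gene. AHR was most like ELF1 (0.968), TBL1XR1 (0.967) and RNF169 (0.967), ARNT like MORC3 (0.968), HEATR5A (0.967) and THUMPD3 (0.967), CYP1B1 like NXPE3 (0.925), ATG4A (0.910) and CYP1B1-AS1 (0.905), and TIPARP like TSC22D1 (0.959), GDPD1 (0.959) and TMEM38B (0.955). With the 15 ratios to untreated cells in place of the 18 levels, the value was 0.956 for AKR1B10 with CYP1A1 and 0.601 for GEMIN8P4, and 0.536 for GDPD1 with TIPARP.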

How the data were processed

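RNA from MDA-MB-231 cells was sequenced as paired-end reads on strand-specific libraries, with mRNA selected by oligo(dT). The authors deposited whole-number read counts per gene without normalization. Per the submitters' processing notes, FastQC 0.11.4, Trim Galore 0.3.7, STAR 2.5.3a, featureCounts (Subread 1.5.2) and edgeR 3.22.3 were used, on build hg19; the annotation version and the strand setting of the counting are not given in the sources used here. A multimapping or overlap rule for near-identical genes is not given either.

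Groups followed the labels. The members and gene lists were chosen with earlier results of these data known. Each of the 3 sets of 18 libraries (24 h, 48 h batch 1, 48 h batch 2) was fitted with edgeR 4.0.16 in R 4.3.3 (filterByExpr, TMM, robust quasi-likelihood), with no covariate. Untreated libraries were compared in fits of their own. The standard error of a log2 difference was its size over the root of F. p-values were adjusted by Benjamini-Hochberg over all genes tested, with a threshold of 0.05. CPM used TMM over all 54 libraries. Totals of 17673537 to 26138924 reads leave counting error largest for low genes, among them AHRR and CYP1A1, with 9 to 63 reads per untreated library. Replicate pairs differed by more than sampling noise (chi-square per gene 1.97 to 131 over 54 pairs). Same-numbered replicates did not deviate together: of 45 pairs of groups, 1 had all correlations over 0.1.

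Alternatives were RLE size factors, library sizes alone, no filter, DESeq2 1.42.0, other samples in the fit, the replicate number as a block, 1 library at a time left out, the 3 libraries that stand apart left out and adjustment over the 16 contrasts together. The change of a treated contrast from 24 to 48 h was tested in 1 fit over both times of batch 1, a test added after the data were seen. Named genes were the members, up to 4 genes per list with the largest ratio in CKI against untreated at 48 h in batch 1 among those called, the 5 genes most like CYP1A1 and the 3 most like each other member, where the mean over all libraries reached 1 CPM. The fits were tested on simulated counts.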

Additional observations from a re-analysis of the deposited data

Results flagged for a closer look

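The change of a contrast between 24 and 48 h in batch 1 (48 h minus 24 h, on the log2 scale) was tested for the 6 members in 6 contrasts, and 11 of the 36 changes were DE by edgeR's quasi-likelihood test. These p-values do not allow for how the genes were chosen either. The 6 contrasts were those of batch 1, and the share of all genes whose contrast changed was 31.4% for N-OmtOspc against CKI, 16.8% for N-MacOmtOspc against CKI, 13.5% for OmtOspc against CKI, 11.5% for MacOmtOspc against CKI, 37.9% for N-MacOmtOspc against N-OmtOspc and 0.0% for MacOmtOspc against OmtOspc, in which edgeR gave 834 genes with an unadjusted p under 0.05. Without CKI replicate 1, N-MacOmtOspc replicate 2 and OmtOspc replicate 2 at 24 h, 14 were DE. The shares of all genes were then 34.9%, 19.7%, 14.1%, 10.9%, 45.3% and 0.0622% in the same order of contrasts.

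The repressor AHRR moved up relative to CKI between the times by 1.37 with N-MacOmtOspc (adjusted p = 0.000857, 1.01 without the 3 libraries), by 0.93 with N-OmtOspc (adjusted p = 0.00903) and by 1.18 with MacOmtOspc (adjusted p = 0.00942). Without the 3 libraries the last pair fell to 0.60 (adjusted p = 0.0573) and 0.81 (adjusted p = 0.0533) and were not DE.

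TIPARP moved up relative to CKI by 0.81 with N-MacOmtOspc, 0.62 with N-OmtOspc, 0.64 with OmtOspc and 0.57 with MacOmtOspc, and remained DE without the 3 libraries at 0.58, 0.48, 0.46 and 0.40. Its level with CKI was 96.9 CPM at 24 h and 94.9 CPM at 48 h.

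The CYP1A1 difference of N-MacOmtOspc from N-OmtOspc changed between the times by -1.25 (adjusted p = 0.0448), and by -1.72 (adjusted p = 2.88e-07) without the 3 libraries, of which N-MacOmtOspc replicate 2 held 5.61 CPM. The same contrast differed by 0.59 for AHR (adjusted p = 0.00737) and by -0.38 for ARNT (adjusted p = 0.0437, lost without the 3 libraries at -0.31, adjusted p = 0.0682). ARNT changed by 0.54 in N-OmtOspc against CKI (adjusted p = 0.00606).

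Changes that became DE without the 3 libraries were those of CYP1A1 relative to CKI with N-OmtOspc (1.02, adjusted p = 0.000236), OmtOspc (0.81) and N-MacOmtOspc (-0.70), of AHR with N-OmtOspc (-0.57), and of CYP1B1 with OmtOspc (0.42) and between N-MacOmtOspc and N-OmtOspc (0.41).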

How the results depend on the processing

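Of the 96 member results between treated groups, RLE size factors changed no call, DESeq2 added 2 and the replicate block removed 1. Only the compared groups in the fit added 4 and removed 6, all 54 libraries in 1 fit added 4 and removed 3, library sizes alone added 3 and removed 4, adjustment over the 16 contrasts together added 1, no filter removed 1, and leaving out the 3 libraries that stand apart added 1 and removed 3 of 36 at 24 h. No direction of a called result turned under any setting. Each result was also refitted several times with 1 library left out. Of these refits 22 lost a call, 2 gained one and 552 left it as it was, and 1 result can count more than once. For CYP1A1, N-OmtOspc against CKI at 48 h was not DE with all 54 libraries in 1 fit (-0.59, adjusted p = 0.0683), and N-MacOmtOspc against CKI at 24 h was not DE with only these groups in the fit (-1.57, adjusted p = 0.0945). The cause was not tested. Leaving out 1 library gave -1.67 to -1.24 for N-OmtOspc against CKI at 24 h, 3.97 to 4.41 for N-OmtOspc against untreated cells at 24 h and 3.98 to 4.51 for N-Omt against untreated cells.

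Scaling by library sizes alone moved the median of all genes by -0.36 for N-OmtOspc against CKI and by -0.31 for N-OmtOspc against untreated cells at 24 h. The CYP1A1 ratio of the latter became 3.96, the AHRR call in the former was lost (0.42, adjusted p = 0.182) and AHR in OmtOspc against untreated cells at 48 h turned from -0.08 to 0.0217. Counts of all genes DE moved by over 1.5 times in MacOmtOspc against untreated cells at 24 h (1576, 5063 with only these groups, 3094 without the 3 libraries), MacOmtOspc against OmtOspc at 48 h (305, 1422 with only these groups, 494 with DESeq2) and at 24 h (0, 3 without the 3 libraries), OmtOspc against CKI at 24 h (1282, 316 with only these groups, 1925 with DESeq2) and N-MacOmtOspc against CKI at 24 h (5404, 3261 with only these groups). The number of pathway genes DE with MacOmtOspc against untreated cells at 24 h was 4, and 7 with DESeq2, 9 with all 54 libraries, 11 with only these groups and 9 without the 3 libraries that stand apart. With OmtOspc at 24 h it was 7, and between 4 and 7 with 1 library left out.

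The replicate numbers did not pair the samples. With the replicate block, TIPARP in N-MacOmtOspc against CKI at 24 h (-0.34, adjusted p = 0.0582) and AHR in untreated cells between times (0.24, adjusted p = 0.0750) were not DE, and no other member call between treated or untreated groups changed. Of the members, depth limited AHRR and CYP1A1 in untreated cells most.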
